A study of Homo sapiens with 11 samples.

Results

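The genes described are the zinc finger genes on chromosome 19 whose symbol is ZNF followed by a number. A gene name was a member when at least 1 of 5 Ikaros peak lists gave it a peak on that chromosome, which held for 247 of the 36451 gene names in the lists. The GENCODE 44 annotation of GRCh38 matched 245 of them: 220 protein-coding genes, 16 noncoding RNA genes and 9 pseudogenes. Of the 515 coding ZNF genes in that annotation, 249 (48.3%) lie on chromosome 19, and 29 of those 249 were given no peak by name. For 17 of these 29, such as ZNF8 in all 5 lists, a peak given to another name nevertheless lay within 1000 bp of an annotated transcription start site (TSS).

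Chromatin immunoprecipitation and sequencing (ChIP-seq) had been run with antibodies to Ikaros, the zinc finger transcription factor encoded by IKZF1, in the established pre-B acute lymphoblastic leukemia lines JM1, REH, 697 and Nalm6, all grown in the same medium. The lists came from untreated JM1, from JM1 given 20 µM CX-4945, a small molecule that blocks the kinase CK2, for 1 day, from untreated REH, from untreated 697 and from Nalm6 given CX-4945 at that dose for 1 day. There was 1 list per condition, so no value below has a replicate check and no test between conditions was possible. JM1 and REH libraries used a Bethyl antibody and 697 and Nalm6 libraries an affinity-purified one, so line and antibody cannot be told apart between those pairs. The lists held 37448, 88692, 83563, 19652 and 70894 peaks in the order given. Gene expression was not measured.

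Most ZNF proteins of chromosome 19 join a Krüppel-associated box (KRAB) to an array of C2H2 zinc fingers. The KRAB domain binds the corepressor TRIM28, which brings the histone methyltransferase SETDB1 and heterochromatin proteins to the bound site, and many of these proteins silence transposable elements. The genes arose by repeated tandem duplication and lie side by side in clusters, and in a typical gene the first exon is short and far from a long last exon that codes for all the fingers. Ikaros itself binds DNA through C2H2 fingers, and the core of its recognition sequence is GGGAA, often preceded by T.

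The sequence upstream of the start is shown for 8 members that stand for the patterns described below, as RefSeq promoter sequence of GRCh38.p14 read 5′ to 3′ on the strand of the gene, ending before any annotated exon. Capitals mark TGGGAA and the ETS-type core CGGAAG, or their reverse complements TTCCCA and CTTCCG. ZNF507 (chr19:32345360-32345593, plus strand) and ZNF274 (chr19:58182811-58183028, plus strand) had a promoter peak in all 5 lists.
ZNF507: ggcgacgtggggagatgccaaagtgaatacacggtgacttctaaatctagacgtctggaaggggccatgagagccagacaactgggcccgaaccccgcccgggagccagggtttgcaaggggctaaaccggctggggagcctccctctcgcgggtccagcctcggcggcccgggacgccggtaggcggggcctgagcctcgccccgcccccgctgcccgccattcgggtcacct
ZNF274: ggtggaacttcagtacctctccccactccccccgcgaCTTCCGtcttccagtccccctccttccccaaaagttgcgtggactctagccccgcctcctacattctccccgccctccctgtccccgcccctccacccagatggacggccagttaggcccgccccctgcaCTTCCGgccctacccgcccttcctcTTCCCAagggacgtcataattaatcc
ZNF583 (chr19:56403764-56404013, plus strand) had none in untreated JM1 and one of the highest-scored in treated JM1.
ZNF583: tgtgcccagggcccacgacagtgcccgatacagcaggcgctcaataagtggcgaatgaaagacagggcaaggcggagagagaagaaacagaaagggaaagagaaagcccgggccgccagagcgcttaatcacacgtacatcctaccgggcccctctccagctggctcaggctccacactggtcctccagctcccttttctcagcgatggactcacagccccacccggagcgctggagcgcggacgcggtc
ZNF227 (chr19:44212282-44212527, plus strand) had the highest-scored promoter peak of any member in untreated JM1, and with ZNF225 (chr19:44113184-44113398, plus strand) and ZNF235 (chr19:44305047-44305275, minus strand) it shows the repeated TGGGAA of a cluster on the long arm.
ZNF227: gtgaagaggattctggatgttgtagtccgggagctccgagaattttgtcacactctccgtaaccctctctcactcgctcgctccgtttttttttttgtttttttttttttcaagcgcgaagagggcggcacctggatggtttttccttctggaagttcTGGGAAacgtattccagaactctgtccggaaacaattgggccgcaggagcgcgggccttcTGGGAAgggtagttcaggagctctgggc
ZNF225: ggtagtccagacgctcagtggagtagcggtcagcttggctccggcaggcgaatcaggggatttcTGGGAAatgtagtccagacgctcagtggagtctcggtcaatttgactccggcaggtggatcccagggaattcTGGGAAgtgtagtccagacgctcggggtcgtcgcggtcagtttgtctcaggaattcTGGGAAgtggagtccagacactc
ZNF235: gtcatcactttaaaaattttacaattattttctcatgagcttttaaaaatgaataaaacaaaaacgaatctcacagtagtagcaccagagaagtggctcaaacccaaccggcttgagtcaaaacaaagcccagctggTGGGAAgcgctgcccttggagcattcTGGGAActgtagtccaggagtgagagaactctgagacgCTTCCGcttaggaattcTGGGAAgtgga
ZNF431 (chr19:21141790-21142023, plus strand) had no peak near a TSS in any list, and ZNF91 (chr19:23395472-23395721, minus strand) had one in REH alone.
ZNF431: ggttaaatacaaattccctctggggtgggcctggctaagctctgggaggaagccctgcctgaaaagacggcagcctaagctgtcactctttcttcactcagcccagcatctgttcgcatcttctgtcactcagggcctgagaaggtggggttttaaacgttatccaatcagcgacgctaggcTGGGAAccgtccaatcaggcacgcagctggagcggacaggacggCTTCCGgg
ZNF91: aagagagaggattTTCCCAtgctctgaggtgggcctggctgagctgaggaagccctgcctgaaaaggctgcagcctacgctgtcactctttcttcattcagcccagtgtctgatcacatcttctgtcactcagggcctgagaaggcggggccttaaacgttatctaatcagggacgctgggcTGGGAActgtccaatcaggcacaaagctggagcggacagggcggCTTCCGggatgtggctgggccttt
The windows of ZNF507 and ZNF583 held neither core, ZNF225 and ZNF235 held TGGGAA 3 times each, and ZNF431 held each core once. The ZNF583 and ZNF235 windows lay wholly inside the treated JM1 and REH peaks, and no peak of any list overlapped the windows of ZNF431 and ZNF91, the REH peak of ZNF91 lying just past the start. No 697 or Nalm6 peak overlapped the windows of ZNF274 and ZNF583.

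Peaks given to members numbered 136 for untreated JM1, 342 for treated JM1, 338 for REH, 107 for 697 and 295 for Nalm6, and fell on 104, 192, 211, 84 and 177 members. They were between 4.48% (untreated JM1) and 6.96% (REH) of the chromosome 19 peaks of their list. Most members with a peak had 1, from 113 of 192 in treated JM1 to 69 of 84 in 697. Member peaks were narrower than peaks given to other genes of the chromosome, with medians of 650 against 1038 bp for untreated JM1, 1060.5 against 1579 bp for treated JM1, 1085 against 1598 bp for REH, 422 against 695 bp for 697 and 682 against 1085.5 bp for Nalm6.

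The annotation class in the files put 54.4% of member peaks in promoters for untreated JM1, 38.0% for treated JM1, 41.1% for REH, 44.9% for 697 and 36.6% for Nalm6. The shares for peaks given to other names on chromosome 19 were lower in each list, at 28.6, 19.9, 21.6, 35.6 and 24.1%. Those of all peaks were 26.3, 16.1, 16.9, 40.7 and 19.2%. ZNF names on other chromosomes lay between the members and the other chromosome 19 names in 4 lists, at 41.6, 30.03, 32.2 and 31.4% for untreated JM1, treated JM1, REH and Nalm6, and above the members in 697, at 55%. Introns held 25.7, 38.9, 37.9, 24.3 and 38.6% of member peaks, and intergenic sequence 5.1, 10.8, 8.6, 5.6 and 12.5%. When all lists were shortened to 19652 peaks by score, the length of the shortest, the promoter share of member peaks was 62.1% for treated JM1, 50.4% for REH and 46.9% for Nalm6. The share of other peaks at that length was not taken, so whether the higher values are particular to members was not tested.

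Measured from the start of the longest coding transcript, 41.6% (treated JM1) to 59.2% (697) of peaks given to coding members had their centre within 1000 bp of it, against 14.2% (REH) to 27.6% (697) of peaks given to other coding genes of the chromosome. The median distance of these near peaks was between 118.5 bp (treated JM1) and 222.5 bp (Nalm6) into the gene. In every list the first kb of the gene held more peaks than any other kb.

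**Figure D1:**
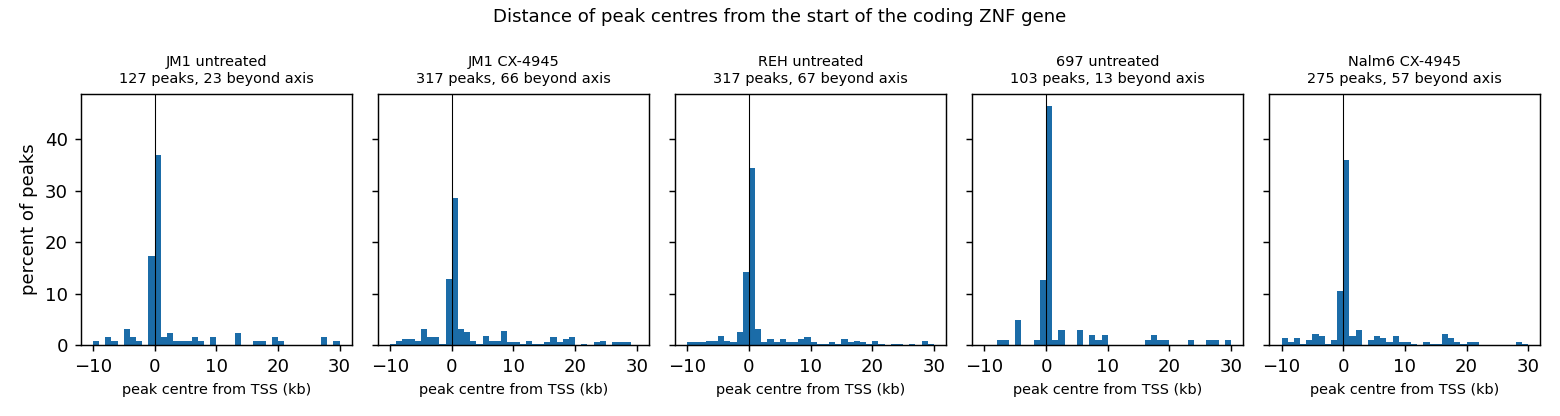
Distance of peak centres from the start of the coding ZNF gene of chromosome 19 they were given to, in kb along the gene's strand (horizontal axis, bins of 1 kb), as percent of those peaks in each list (vertical axis). In each of the 5 lists the tallest bar lies in the first kb after the start, and 13 to 67 peaks per list lie beyond the axis.

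Promoter coverage was counted first by the class in the files, in which a peak belongs to 1 gene name only. Of member promoter peaks whose class named an annotated transcript, some named a transcript of another gene. These were 13 of 72 in untreated JM1, 21 of 126 in treated JM1 and 24 of 135 in REH. They were 11 of 45 in 697 and 15 of 103 in Nalm6, so the count is not always of the member's own start. In untreated JM1, 69 of 247 members (27.9%, 95% exact binomial interval 22.4 to 34.0%, counting error only) had a promoter-class peak, against 22.9% of all gene names. In treated JM1 it was 117 (47.4%, against 32.9% of all names), in REH 127 (51.4%, against 32.4%), in 697 45 (18.2%, against 19.5%) and in Nalm6 97 (39.3%, against 31.3%). Other names on chromosome 19 stood at 31.9, 36.5, 38.0, 28.1 and 41.5%, and ZNF names on other chromosomes at 40.1, 54.1, 55.5, 30.5 and 49.3%. By this count members were above the other names of their chromosome in treated JM1 and REH and below them in the other 3 lists, and below ZNF genes elsewhere in all 5. In untreated JM1 and Nalm6 (33.1 to 45.7%) the interval of the members included the value of the other chromosome 19 names. In REH (45.0 to 57.8%) it included that of ZNF names elsewhere, so these differences lie within counting error.

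The order differed when a gene counted as covered once any annotated TSS of it lay at most 1000 bp from a peak, whatever name the peak carried. By this rule 109 of the 249 coding ZNF genes on chromosome 19 were covered for untreated JM1 (43.8%, against 58.8% of all coding genes), 197 for treated JM1 (79.1%, against 81.2%), 231 for REH (92.8%, against 81.8%), 82 for 697 (32.9%, against 49.5%) and 184 for Nalm6 (73.9%, against 74.4%). The other coding genes of the chromosome were at 72.2, 90.1, 90.1, 62.6 and 86.6%. REH, with an interval of 88.8 to 95.7%, was therefore the one list in which the ZNF genes were not below their chromosome, and the gap was widest in 697 and untreated JM1. Between 75.1% (treated JM1) and 86.6% (697) of covered genes had a best peak that carried their own name.

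**Figure D2:**
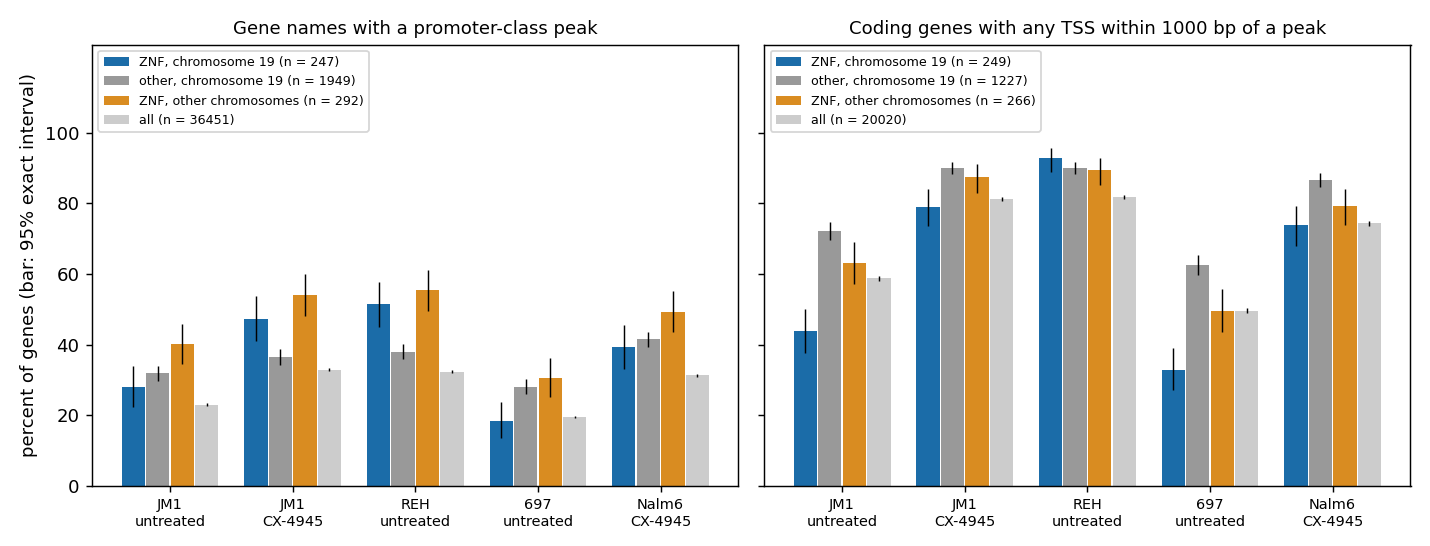
Percent of genes with a promoter-class peak (left) and of coding genes with any TSS within 1000 bp of a peak (right) in each list, for ZNF genes of chromosome 19, other genes of that chromosome, ZNF genes of other chromosomes and all genes, with lines for 95% exact intervals. In the right panel the ZNF genes of chromosome 19 are the lowest bar in each list other than REH, where they are the highest.

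These shares moved with the length of the list. With all lists shortened to 19652 peaks by score, the TSS rule covered 30.1% of the coding ZNF genes for untreated JM1, 51.0% for treated JM1, 51.8% for REH, 32.9% for 697 and 43.0% for Nalm6. At that length the other coding genes of the chromosome were at 59.6, 68.5, 70.4, 62.6 and 64.8%, so that the ZNF genes were below them in all 5 lists, REH included. All coding genes of the genome stood at 45.3, 60.5, 62.2, 49.5 and 54.4%, so that the treated list also covered more of them than the untreated one. Treated JM1 and REH, whose intervals for the ZNF genes were separate at full length, differed by less than their intervals at this length.

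In JM1, the treatment comparison of the series, a promoter-class peak was shared by both lists at 49 members (against 15.5% of all names), found only in the treated list at 68 (27.5%, against 17.4%), only in the untreated list at 20 (8.1%, against 7.39%) and absent from both at 110 (against 59.7%). By the TSS rule both lists covered 106 coding ZNF genes (against 58.3% of all coding genes), the treated list alone 91 (36.5%, against 23% of all coding genes and 18.3% of the other coding genes of the chromosome), the untreated list alone 3 (against 0.564%) and neither 49 (against 18.2%). Of the 91 genes, 90 (98.9%, 94.0 to 99.97%) were also covered in untreated REH. So were 89.7% of the genes covered in the treated list alone among all coding genes, and 96.9% among coding ZNF genes elsewhere. Over whole sets, that pattern held for 36.1% of the coding ZNF genes against 20.6% of all coding genes. Among coding ZNF genes elsewhere the pattern held for 23.7%, and the treated list alone covered 24.4%. By class, the treated list alone held 17.7% of the other names of the chromosome and 24.0% of ZNF names elsewhere. The untreated list alone held 13.0 and 9.9% of these. The treated list was the longer one, and with both at 19652 peaks the share of members with the class only in the treated list was 20.6%, against 11.1% of all names, 10.5% of the other names of the chromosome and 19.2% of ZNF names elsewhere. By the TSS rule at that length it was 29.3% of the coding ZNF genes, against 21.04% of all coding genes. The untreated list alone then had the class at 10.9% of members, against 7.41% of all names. Other names of the chromosome were at 13.5% and ZNF names elsewhere at 10.6%, so members were not high beside these. By the TSS rule the untreated list alone covered 8.4% of the coding ZNF genes, against 5.86% of all coding genes. The other coding genes of the chromosome were at 7.5% and coding ZNF genes elsewhere at 4.1%.

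By an overlap of at least 1 bp, a treated peak touched 123 of the 136 untreated member peaks (90.4%, 84.2 to 94.8%), close to the 91.0% of other chromosome 19 peaks, and 71 of the 74 in promoters. This rests on the loose rule and the longer treated list: with a reciprocal overlap of 50% the share was 41.9%, and with both lists at the length of the shorter 68.4%. An untreated peak overlapped 119 of the 342 treated member peaks (34.8%, 29.8 to 40.1%), against 42.9% of the other chromosome 19 peaks, and 15.8% were overlapped by the reciprocal rule. For treated member peaks in promoters the share by 1 bp was 53.1%, against 60.7% for promoter peaks of other names on the chromosome and 64.3% for those of ZNF names elsewhere. A REH peak overlapped 94.6% of these member peaks, and 91.6 and 95.6% of the same 2 comparison sets, so the contrast between REH and untreated JM1 was seen in all 3. The REH list was longer than that of untreated JM1 and its peaks wider (median 1195 against 874 bp), which favours overlap with any set. No value at equal length was taken for this contrast.

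The 5 highest-scored treated promoter peaks among members with none of that class in untreated JM1 were those of ZNF420, ZNF583, ZNF527, ZNF473 and ZNF428. Scores are the authors' and order peaks within 1 list only, and a percentile below is the place of a score among all peaks of its list. ZNF583 had no untreated JM1 peak near a TSS, and its best TSS peaks scored 130 for treated JM1 (percentile 99.6), 70 for REH (95.7), 21 for 697 (44.9) and 31 for Nalm6 (77.5). ZNF527 was likewise without an untreated JM1 peak, and scored 114 for treated JM1 (percentile 99.4), 82 for REH (97.2), 20 for 697 (41.3) and 17 for Nalm6 (34.8). Both promoters thus ranked among the top peaks of treated JM1 and REH and in the lower range of 697.

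The other 3 had an untreated peak of another class or name. ZNF420, which restrains p53 activity, had an untreated peak at score 11 (percentile 7.90) in an intron next to its first TSS, whereas the treated peak at 155 (99.8) lay at a TSS further into the gene, and Nalm6 had a peak there at 53 (95.1). ZNF473, a component of histone pre-mRNA processing, starts head to head with the kinase gene VRK3. Its untreated peak of score 29 (percentile 95.7) carried the name VRK3, and its treated peak scored 109 (99.3). ZNF428 had an untreated peak of score 16 (percentile 58.2) in the intron class, and 101 (99.2) for treated JM1, 147 (99.8) for REH, 34 (75.5) for 697 and 18 (39.6) for Nalm6. In all, 20 of the 68 members had an untreated peak within 1000 bp of a TSS despite the missing class.

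Of the 20 members with the class in untreated JM1 alone, 18 had a treated peak near a TSS. ZNF160, a repressor of the Toll-like receptor gene TLR4, had a promoter peak of score 44 (percentile 99.3) in untreated JM1, and the treated peak over the same start, of score 101 (99.2), was placed in the intron class. For ZNF780B the scores were 41 (percentile 99.1) and 27 (80.7), the second again in the intron class. ZNF571-AS1, an antisense RNA gene, had 31 (percentile 96.9) in the untreated list, and the treated peak over its start at 41 (92.6) was given to a neighbouring name.

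Promoter-class peaks in all 5 lists were found for 12 members (4.9%, against 7.36% of all names), and none in any list for 54 (21.9%, against 46.5%). These shares were 13.4 and 22.6% for ZNF names on other chromosomes, and 9.4 and 33.4% for the other names of the chromosome. The low share without such a peak was thus shared by ZNF names elsewhere. By the TSS rule 52 coding ZNF genes (20.9%) were covered in all 5 lists, against 41.8% of all coding genes and 56.2% of the other coding genes of the chromosome. The 12 were ZNF135, ZNF264, ZNF274, ZNF331, ZNF433, ZNF507, ZNF567, ZNF568, ZNF584, ZNF606, ZNF653 and ZNF787, of which 5 lie in the cluster nearest the end of the long arm. ZNF606 was the most evenly ranked, with scores of 26, 37, 53, 24 and 65 in untreated JM1, treated JM1, REH, 697 and Nalm6, and percentiles no lower than 54.2. ZNF653 scored 15, 60, 53, 71 and 27 in the same order, and its 697 peak was among the top 3 of members there. Its Nalm6 peak, 11486764 to 11488144, lay wholly inside the gene, while those of the other lists lay over its first base. The peaks of 1 gene need not lie at 1 start: for ZNF787 the promoter-class peak in untreated JM1 lay over the gene's first base, while that in treated JM1, 56095272 to 56113050, lay wholly inside the gene, as did those of the other 3 lists. For ZNF584 in Nalm6 and ZNF331 in untreated JM1, too, the highest-scored promoter-class peak lay apart from those of the other lists.

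ZNF274, whose protein binds the finger-coding exons of other ZNF genes and recruits SETDB1 there, scored 13, 33, 61, 17 and 37. It ranked low in untreated JM1 (percentile 29.8) and 697 (30.2) and above 85 in the other 3 lists. ZNF568, whose mouse counterpart silences an Igf2 transcript in the placenta, scored 20, 64, 35, 19 and 43, and ZNF135 scored 15, 20, 44, 19 and 51. ZNF507 scored 40, 96, 93, 17 and 28, which put it at percentile 98.2 or higher in the 3 lists made with the Bethyl antibody and at 30.2 and 72.0 in 697 and Nalm6. ZNF567 had the highest promoter score of any member in treated JM1, 158, and only 14 in 697 (percentile 16.8).

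**Figure D3:**
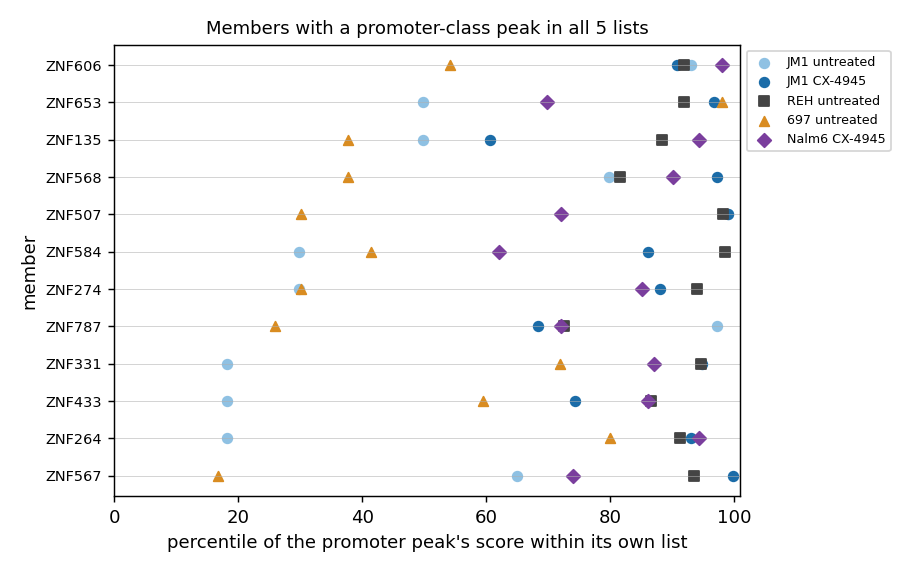
Percentile of the promoter-class peak's score within its own list (horizontal axis) for the 12 ZNF members with such a peak in all 5 lists (rows), with 1 symbol per list. Marks for 697 lie at percentile 54.2 or lower for 8 of the 12, while those for treated JM1, REH and Nalm6 lie above 60 throughout.

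The highest promoter scores of each list fell on different members. ZNF227 led untreated JM1 with 49 (percentile 99.6), followed by ZNF160 and ZNF780B. In REH it was ZNF428 with 147, then ZNF584 with 100 and ZNF557 with 99, and in Nalm6 ZNF302 with 76, ZNF606 with 65 and ZNF846 with 64. In 697 ZNF524, ZNF581 and ZNF653 led with 77, 74 and 71. ZNF524 shares its start region with FIZ1, and the peaks over it in untreated JM1 (70), treated JM1 (82) and REH (109) were all given to FIZ1. The median percentile of member promoter peaks was 61.6 for untreated JM1, 83.7 for treated JM1, 74.5 for REH, 46.6 for 697 and 72.0 for Nalm6, against 65.0, 78.8, 79.2, 66.2 and 74.0 for other names of the chromosome. Member promoters thus ranked lower than their chromosome by most in 697, and higher in treated JM1 alone. In treated JM1 the median of all promoter peaks was 82.3, close to that of members. Promoter peaks of ZNF names on other chromosomes had higher medians than members in each list, at 75.7, 89.6, 89.1, 61.8 and 83.1.

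Members were joined into a cluster when the next gene start lay within 500 kb, with at least 5 members per cluster. This gave 10 clusters, numbered from the end of the short arm, that held 229 members in 14.4 Mb, with 16 members outside and 2 without a position. In REH all coding ZNF genes of 7 clusters were covered by the TSS rule, and the exceptions were cluster 4 (67.6%), cluster 7 (87.0%) and cluster 10 (93.0%).

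**Figure D4:**
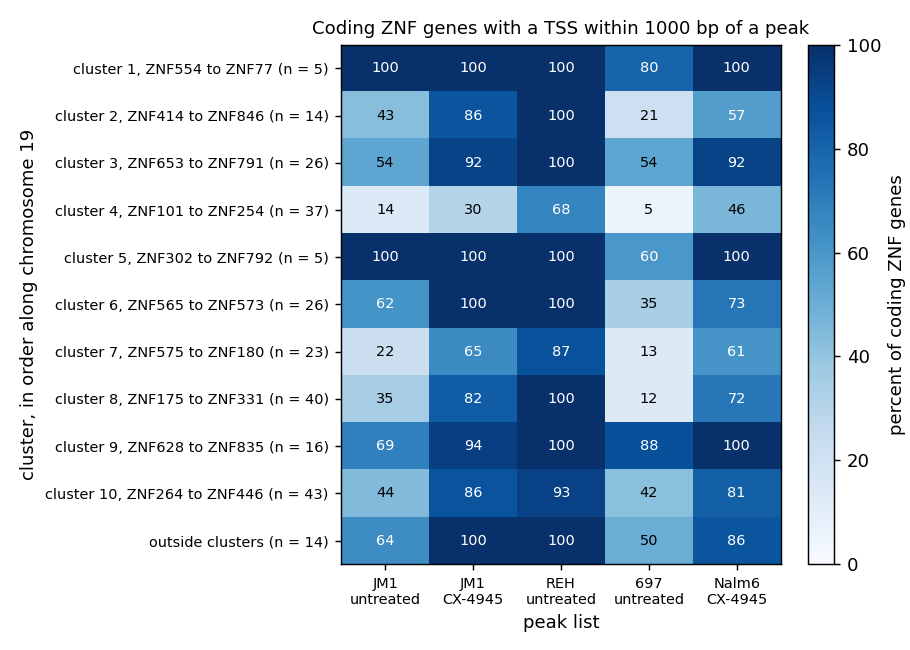
Percent of the coding ZNF genes of each cluster with a TSS within 1000 bp of a peak (colour and printed number), by cluster in order along chromosome 19 (rows, with the number of genes) and list (columns). Cluster 4 is the palest row, from 5% in 697 to 68% in REH, and clusters 1, 5 and 9 are the darkest.

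Cluster 4, from ZNF101 to ZNF254 (19668796 to 24129968), spans the centromeric end of the short arm with 37 coding ZNF genes in 4.46 Mb. Peaks lay near a TSS of 13.5% of these genes for untreated JM1, 29.7% for treated JM1, 67.6% for REH, 5.4% for 697 and 45.9% for Nalm6. Of its 32 members 0 had a promoter-class peak for untreated JM1, 3 for treated JM1, 9 for REH, 1 for 697 and 4 for Nalm6. The cluster also had the fewest peaks of any name per Mb in each list, from 2.69 in 697 to 18.8 in REH, and only 3 coding genes of other families. ZNF101, at its distal edge, was its 1 gene covered in all 5 lists.

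No peak lay near a TSS in any list for 15 coding ZNF genes (6.0%, against 14.6% of all coding genes). The other coding genes of the chromosome were at 7.4% and coding ZNF genes elsewhere at 9.0%. Of the 15 ZNF genes without a peak, 10 lie in this cluster, among them the members ZNF429, ZNF431 and ZNF99. Of the 15 covered in REH alone (6.0%, against 1.72% of all coding genes), 7 do. ZNF91 and ZNF93, which silence SVA and LINE-1 retrotransposons, belong to this group, with REH peaks of score 21 (percentile 48.5) and 38 (84.5). The other 5 were ZNF257 (14), ZNF726 (37), ZNF728 (21), ZNF729 (16) and ZNF85 (15), so that 5 of the 7 scored 21 or lower. Outside the cluster the highest REH score in this group was that of ZNF45 in cluster 7, at 95 (percentile 98.3), with no peak near a TSS in the other 4 lists.

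Cluster 7, from ZNF575 to ZNF180 (43525497 to 44500524), holds 23 coding ZNF genes, of which 21.7% were covered for untreated JM1, 65.2% for treated JM1, 87.0% for REH, 13.0% for 697 and 60.9% for Nalm6. ZNF227 scored 49 in untreated JM1 (percentile 99.6), 76 in REH (96.5) and 19 in Nalm6, with no 697 peak, and its best treated JM1 peak, at 53 (95.8), lay at a TSS further upstream. ZNF225 scored 16 for untreated JM1, 23 for treated JM1 and 29 for REH, with none for 697 or Nalm6. ZNF224, a protein partner of WT1, had none for untreated JM1 and 697, and scored 15 for treated JM1, 21 for REH and 25 for Nalm6. All 3 scores were within the lower or middle range of their lists (percentiles 32.9, 48.5 and 64.9). ZNF235 was covered in treated JM1 (45, percentile 94.0) and REH (46, percentile 89.4) only. These neighbours thus ranged from 2 to 4 lists.

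Cluster 8, from ZNF175 to ZNF331 (51571283 to 53580269), had the widest range between lists, with 35.0% of its 40 coding ZNF genes covered for untreated JM1, 82.5% for treated JM1, 100% for REH, 12.5% for 697 and 72.5% for Nalm6. Its 2 genes covered in all 5 lists were ZNF160 and ZNF331. Cluster 6, from ZNF565 to ZNF573 (36182276 to 37817300), holds ZNF420, ZNF527, ZNF567 and ZNF568. All of its 26 coding ZNF genes were covered in treated JM1 and REH, 61.5% in untreated JM1, 34.6% in 697 and 73.1% in Nalm6. In cluster 9, from ZNF628 to ZNF835 (55476617 to 56671783), the 697 list covered 87.5% of 16 coding ZNF genes, against 68.8% for untreated JM1, 93.8% for treated JM1 and 100% for REH and Nalm6. Coverage in 697 was also high in cluster 1, at 80% of 5 genes, and was 60% or lower in each of the other 8 clusters. Of the 45 members with a promoter-class peak in 697, 11 lie in cluster 9 and 11 in cluster 10.

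Promoter composition also differed between clusters. RefSeq promoters of 300 bases (250 before and 50 after the start) matched 208 members, and their median G+C was 60.7%, against 63.3% for the other names of the chromosome and 58.3% for all 27305 promoters. Median G+C was 55.8% in cluster 4, 55.3% in cluster 7 and 67.7% in cluster 9. By the number of lists with a peak near a TSS, the medians were 56.3% for 12 members with 1 list, 56.3% for 25 with 2, 58.3% for 50 with 3, 61.3% for 67 with 4 and 64.2% for 52 with all 5. The part of base composition in the coverage was not tested.

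**Figure D5:**
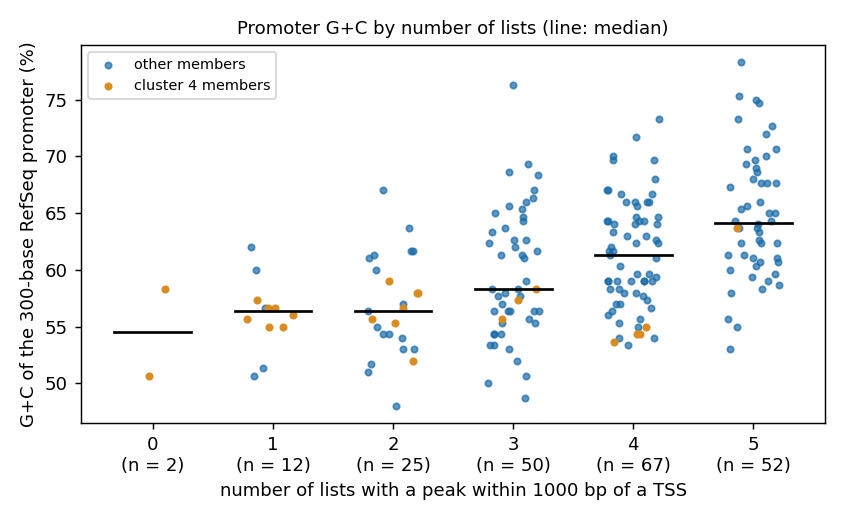
G+C content of the 300-base RefSeq promoter (vertical axis, percent) of 208 members by the number of lists with a peak within 1000 bp of a TSS (horizontal axis). Each point is 1 member, orange points belong to cluster 4, and the median lines rise from 56.3% at 1 list to 64.2% at 5.

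Searched on both strands, TGGGAA was found in 42.8% of member promoters, against 25.4% of those of other names on the chromosome, 32.8% of ZNF promoters elsewhere and 24.3% of all. GGGAA, which every TGGGAA contains, was in 74.5% against 64.6% of all, and CGGAAG in 57.7% against 19.9% of all. TGGGAA was spread unevenly, in 14 of 15 promoters of cluster 7 and 2 of 25 of cluster 3. A promoter with TGGGAA was not more often covered: the share with it was 66.7% of members covered in 1 list, 60% with 2, 42% with 3, 38.8% with 4 and 34.6% with 5.

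In the 200 bases around the centre of promoter-class peaks, TGGGAA was found in 35.1% of member peaks for untreated JM1 (24.4 to 47.1%), 32.3% for treated JM1, 28.1% for REH, 31.2% for 697 and 22.2% for Nalm6. For promoter peaks of other names on the chromosome the shares were 16.9, 15.1, 17.9, 10.4 and 17.9%. The member share was above theirs in each list, and by least in Nalm6, where the interval of 14.8 to 31.2% included their value. Member peaks outside promoters held it in 12.9, 18.4, 17.6, 13.6 and 23.0%. GGGAA was in 62.2, 57.7, 52.5, 66.7 and 56.5% of member promoter peaks, against 53.2, 48.6, 52.0, 49.5 and 51.1% for other names. CGGAAG was in 28.4, 24.6, 22.3, 29.2 and 23.1%, against 11.4, 10.9, 10.7, 13.0 and 10.8%. A higher share at member promoter peaks was thus not particular to TGGGAA.

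The TGGGAA of these promoters often sat in a longer shared string, chosen here after the sequences had been seen. The commonest context of 11 bases was TCTGGGAAATG, in 18 of 208 member promoters and 44 of the 27097 others. It was found in 8 of 29 promoters of cluster 6, 3 of 5 of cluster 5 and 4 of 15 of cluster 7, among them those of ZNF567, ZNF568, ZNF420, ZNF302 and ZNF225. In cluster 7 the related TCTGGGAAGTG was in 5 of 15. For CGGAAG the commonest context was CCCGGAAGCCG, in 12 of 24 promoters of cluster 4 and 47 of the 27097 others, and it can be read in reverse complement at the end of the ZNF431 window and near that of ZNF91. Promoters of 1 cluster share descent by duplication and are not independent of each other.

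The last exon, where the finger array is coded, seldom had a peak centre. In coding members this exon had a median length of 3061 bp, against 666 bp in other coding genes of the chromosome. Even so a peak centred in it, and over 1000 bp from the start, was found in 6 of 220 members for untreated JM1, 7 for treated JM1, 6 for REH, 7 for 697 and 10 for Nalm6 (2.7 to 4.5%), against 8.8 to 14.5% of 1011 other coding genes. Over all lists 14 members had such a peak, 7 of them in cluster 9. Their last exons had a median G+C of 60.7%, against 40.3% for the 206 without one.

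ZNF444 and ZNF835 had it in all 5 lists, ZNF526, ZNF579 and ZNF787 in 4. For ZNF579 the scores of the last-exon peaks were 40 for treated JM1 (percentile 92.2), 71 for REH (95.8), 49 for 697 (91.3) and 53 for Nalm6 (95.1), and all but the 697 peak reached back over the start of the gene. For ZNF835 they were 16 for untreated JM1 (percentile 58.2), 27 for treated JM1 (80.7), 28 for REH (70.4), 24 for 697 (54.2) and 34 for Nalm6 (81.8). In ZNF835 the peak over the fingers was thus present in both lists, untreated JM1 and 697, that had no peak near its TSS. ZNF444 had the highest last-exon score of 697, 55 (percentile 94.1), and ZNF575 that of untreated JM1, 22 (86.0).

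Some members had many peaks or none of the promoter class. ZNF536, a repressor of neuronal differentiation that lies outside the clusters and spans 488.7 kb, had 6 peaks for untreated JM1, 29 for treated JM1, 38 for REH, 5 for 697 and 25 for Nalm6, mostly in introns (5, 21, 29, 3 and 16). No other member had over 7 peaks in a list. Without ZNF536 the promoter share of member peaks was 56.2, 41.5, 46.0, 46.1 and 39.6%. ZNF579, ZNF554, ZNF565, ZNF833P, ZNF625 and ZNF415 had the most peaks among members without a promoter-class peak in any list. Of these, ZNF579, ZNF554, ZNF565 and ZNF625 had a peak within 1000 bp of a TSS in all 5 lists and ZNF415 in 3, so that the missing class did not mean an uncovered start.

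The partners of KRAB zinc finger proteins form a list of 19 genes, described here without a test. Of the 19 cofactor genes 11 had a promoter-class peak for untreated JM1, 17 for treated JM1, 16 for REH, 13 for 697 and 16 for Nalm6, against 22.9, 32.9, 32.4, 19.5 and 31.3% of all names. By the TSS rule 15, 19, 19, 14 and 19 were covered, against 58.8, 81.2, 81.8, 49.5 and 74.4% of all coding genes. SETDB1 had no peak near a TSS for untreated JM1 and 697, and scored 39 for treated JM1, 24 for REH and 12 for Nalm6. ATF7IP, the partner of SETDB1, and MPHOSPH8, a subunit of the silencing complex HUSH, were covered in the same 3 lists. TRIM28, itself on chromosome 19, was covered in all 5 lists, with promoter-class scores of 15 in untreated JM1, 92 in REH, 79 in 697 and 45 in Nalm6 and a treated JM1 peak of another class or name. The maintenance DNA methyltransferase DNMT1 scored 20, 158, 139, 24 and 39 and its cofactor UHRF1 21, 60, 81, 42 and 40 in untreated JM1, treated JM1, REH, 697 and Nalm6.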

How the data were processed

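The 5 peak lists were used as deposited, 1 for each condition. Per the file headers, the authors gave every peak coordinates, an integer score, a class of annotation, the nearest transcript and 1 gene name. Bowtie2 2.3.4.3, MACS2 2.1.1, HOMER 4.10 and GRCh38 are named per the submitters' processing notes. Not given in the sources used here: call settings, the control, how the score is defined, and whether 1 or both Ikaros libraries made the Nalm6 list. The deposited score starts at 10 in each list and was used only within a list. Read depth was not analysed here, so a longer list cannot be read as more binding. A peak belongs to 1 gene name, and a wide peak centred away from the TSS loses the promoter class, which is why every TSS within 1000 bp of a peak was also counted (GENCODE 44). That second rule favours lists with wide peaks. Reads of near-identical ZNF copies may have been dropped or split, which makes peaks at such copies uncertain. Peaks were called overlapping from 1 bp. Shares have 95% exact Clopper-Pearson intervals, which cover counting error only, and no test was run. The members, gene lists and tests were chosen with earlier results of these data known. Genes were named by rule: the 3 highest promoter scores of each list, 6 evenly ranked members of all 5 lists, 5 and 3 members of 1 JM1 list alone, the 5 with most peaks, the highest last-exon peaks, 6 with no promoter-class peak, and the first and last of each cluster. ZNF91, ZNF93, ZNF45, ZNF224, ZNF225, ZNF235, ZNF431, ZNF429, ZNF99 and ZNF85 with its neighbours in cluster 4 were named after their values had been seen, as were the cofactors described, from a fixed list of 19. Promoter sequences are from RefSeq (GRCh38.p14), and 1917 of 1917 on chromosome 19 equalled the genome used. Protein sequences and input libraries were not used here. Scripts in Python 3.11.15 with pandas 2.3.3 were tested on simulated lists.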

Additional observations from a re-analysis of the deposited data

How the results depend on the processing

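Each condition had 1 list, and of 128 alternative values for 40 results, 77 stayed within the 95% exact interval of the reported share (or 1.5 times a count) and 51 did not. Members with a promoter peak, in untreated JM1, treated JM1, REH, 697 and Nalm6, were 46.6, 81.8, 93.5, 35.2 and 77.7% with any TSS within 1000 bp of a peak, and 36.4, 65.2, 72.5, 29.6 and 63.6% with the peak given to the gene and its centre within 1000 bp of the nearest TSS. They were 20.2, 39.7, 44.9, 9.7 and 29.6% with peaks at or above the median score, and 20.2, 29.96, 24.7 and 20.6% in untreated JM1, treated JM1, REH and Nalm6 with each list at the length of the shortest. The share in all 5 lists was 22.3, 9.7, 0.81 and 1.2% under these 4 settings in turn. The share in treated JM1 alone was 36.0% with any TSS, 34.8% with the centre rule and 20.6% at the shortest length. Untreated JM1 member peaks overlapped by a treated peak were 41.9% with a reciprocal overlap of 50%, 68.4% with both lists at the length of the shorter and 81.5% at or above the median score, and treated peaks overlapped by an untreated one 15.8% and 48.9% under the first and second of these. The promoter share of member peaks at or above the median score was 50.7% for treated JM1, 49.2% for REH and 45.8% for Nalm6, and at the shortest length 62.1, 50.4 and 46.9%. Neither share was taken for other peaks. Limiting the count to protein-coding members, other cluster gaps, another overlap with the last exon and leaving out ZNF536 (added after seeing the data) moved no value outside those bounds. The 14 values beyond those given here were shares of member peaks in introns, at transcript ends or between genes. The higher share in treated than in untreated JM1 held under all of these settings, and REH was above treated JM1 except at the shortest length. No paired analysis was possible because each condition had 1 list and no result comes from a test. Without read depth or replicate lists, a missing peak cannot be told from a region too shallow to call.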

Other observations

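Zinc finger genes of the same chromosome with other names were described from a list of 19 that are not members. Of these, 7 had a promoter-class peak for untreated JM1, 7 for treated JM1, 9 for REH, 4 for 697 and 8 for Nalm6, and by the rule on any TSS within 1000 bp 13, 15, 15, 8 and 14 were covered. Over all names the class shares were 22.9, 32.9, 32.4, 19.5 and 31.3%, and over all coding genes the TSS shares 58.8, 81.2, 81.8, 49.5 and 74.4% (no test was run). ZFP30, in the region of cluster 6, had a promoter-class peak in all 5 lists, with scores of 39 for untreated JM1, 118 for treated JM1, 82 for REH, 24 for 697 and 43 for Nalm6. ZFP14 scored 22, 46, 34 and 33 in untreated JM1, treated JM1, REH and Nalm6, with no 697 peak near a TSS. The imprinted genes PEG3 and ZIM2 had a peak near a TSS in each list other than Nalm6, and none of the promoter class under their own names. ZIM3, ZSCAN4 and ZFP112 had no peak near a TSS in any list by these names.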
